A study of Mus musculus with 2 samples.

Results

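The 32 genes described here encode the enzymes, transporters and regulators that carry glucose, glycogen and fructose through the hepatocyte, together with receptors and signalling proteins of glucagon and insulin. They were chosen by name and matched by gene symbol, and all 32 were found among the 43280 gene symbols counted. Reads were counted in 1 library of small hepatocytes (SHs), a hepatocyte progenitor fraction, and 1 library of mature hepatocytes (MHs), both prepared from collagenase-perfused livers of C57BL6 mice. The labels state that both fractions came from the same animals, aged 20 weeks, whereas the methods give a younger age for the mice of the study. MHs were pelleted at low gravity, cleared of dead cells on Percoll and not sorted. SHs were taken from the supernatant of that spin, cleared on Percoll and sorted by FACS for ICAM-1+ cells that lacked EpCAM, CD45 and CD31. The methods name 3 mice for the RNA-seq, and neither pooling, the feeding state nor the time of day is given in the sources used here. Both libraries were made from poly(A) RNA and read on an Ion Proton system.

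Glycolysis splits glucose into pyruvate, and gluconeogenesis rebuilds glucose from lactate, alanine and glycerol over the same reversible steps plus a few enzymes that bypass the irreversible ones. The liver runs both, stores glucose as glycogen after feeding and releases it in fasting, when glucagon favours glucose output and insulin signalling is low. Along the axis from the portal vein to the central vein, gluconeogenic enzymes are classically more abundant near the portal vein (ZONE1) and glycolytic enzymes near the central vein (ZONE3).

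Counted reads numbered 16979136 in MHs, covering 19954 genes, and 42356444 in SHs, covering 23512 genes. Values are reads per 1000000 counted reads (RPM), and each ratio is the log2 of SHs over MHs after adding 0.5 reads per count. The 95% interval given with it (Clopper-Pearson) is one of counting error only, since there was 1 library of each kind and reads carried no molecular identifiers. No test between conditions was possible. A difference whose interval excludes 0 is therefore a difference between these 2 libraries, with no replicate check, and in bulk RNA fewer cells of a type and less RNA per cell cannot be told apart. A count of 3 reads, the limit of detection used here, equals 0.177 RPM in MHs and 0.0708 RPM in SHs, and the member with the fewest reads had 172 over both libraries.

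The hepatocyte markers were present in both libraries. The 10 genes of that list summed to 84886 RPM in MHs and 90432 RPM in SHs, led by Alb, with a median ratio of 0.03. Genes of endothelial cells, macrophages and stellate cells were scarcer in SHs. The 10 endothelial markers summed to 90.8 RPM in MHs and 4.65 RPM in SHs (Lyve1 had 0 reads in SHs), the 10 macrophage markers to 22.5 and 0.779 RPM (Marco had 0 reads in SHs), and the 10 stellate cell markers to 20.97 and 2.36 RPM. Their leading genes were Stab2, with 338 and 119 reads, Clec4f in MHs with 92 reads and Csf1r in SHs with 8, and Reln, with 130 and 64 reads. Of the 8 cholangiocyte markers, which summed to 21.4 and 24.4 RPM, Krt19 and Krt7 had 1 read each in each library, and the leading gene in MHs was Spp1 with 136 reads. Of the 8 blood markers, Alas2 alone reached 10 reads, and Hbb-bt, Cd3e and S100a8 had 0 reads in both libraries. Alas2, which encodes an enzyme of heme synthesis, was at 118 RPM in MHs and 137 RPM in SHs. ZONE1 markers were higher in SHs for 12 of 12 genes (8136 and 9987 RPM in sum, median ratio 0.31), led by Cyp2f2, and ZONE3 markers were lower for 14 of 14 (3306 and 928 RPM, median ratio -1.88), led by Cyp2e1.

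Promoters of 3 members are shown because the largest contrasts below turn on them. Pck1 and G6pc are classic gluconeogenic genes that differed between the libraries in opposite directions, and Irs2 had the highest ratio among the members with at least 1000 reads. The sequences are the 250 bases before the start site in RefSeq (GRCm38.p6), written 5′ to 3′ on the gene's strand. They lie at chr2:173152823-173153072 on the plus strand for Pck1, chr11:101367466-101367715 on the plus strand for G6pc and chr8:11008930-11009179 on the minus strand for Irs2. RefSeq start sites need not coincide with the gene bounds of the GENCODE annotation given below. Capitals mark an exact match to a searched motif, of which the G6pc window held none. Variant forms of these elements were not searched, so a window without capitals may still hold one.
Pck1: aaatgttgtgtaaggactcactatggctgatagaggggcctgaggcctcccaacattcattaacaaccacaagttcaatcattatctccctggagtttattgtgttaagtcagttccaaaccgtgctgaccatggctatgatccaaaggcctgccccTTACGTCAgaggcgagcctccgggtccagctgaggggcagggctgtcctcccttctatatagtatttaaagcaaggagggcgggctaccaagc
G6pc: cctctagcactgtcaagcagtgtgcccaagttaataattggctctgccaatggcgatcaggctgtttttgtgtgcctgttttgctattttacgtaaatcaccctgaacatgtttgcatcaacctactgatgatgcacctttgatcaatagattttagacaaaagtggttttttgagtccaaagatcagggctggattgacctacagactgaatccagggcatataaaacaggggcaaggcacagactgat
Irs2: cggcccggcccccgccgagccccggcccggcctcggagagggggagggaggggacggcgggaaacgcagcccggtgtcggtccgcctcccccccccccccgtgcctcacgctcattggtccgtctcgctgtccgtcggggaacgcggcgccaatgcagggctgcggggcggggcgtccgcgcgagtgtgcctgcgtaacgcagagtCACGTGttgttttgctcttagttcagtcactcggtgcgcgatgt
The capitals in Pck1 are TTACGTCA, a form of the cAMP response element (CRE) through which glucagon is known to act on this gene, with its first base at -93. In Irs2 they are an E-box, CACGTG, with its first base at -44. The search covered windows from 250 bases before to 50 after the start site, on both strands, for TGACGTCA or TTACGTCA, for CACGTG and for the FOXO motif GTAAACA, and no motif contains another. Of the 32 members, 29 had at least 1 window, and Gys2, Insr and Ppp1r3b were not matched. The CRE letters occurred in 3 members (Pck1, Mdh2 and Ldha), the E-box in 6 (Irs2, Irs1, Khk, Pcx, Ppp1r3c and Ldha) and the FOXO letters in 0. Of all 32851 windows, 2.28% held the CRE, 7.15% the E-box and 3.65% the FOXO motif. These are shares of windows, whereas the member counts are of genes, and the 29 matched members had 39 windows. These are matches of letters, not measured sites, and the 3 members with the CRE had ratios of 0.43 for Pck1, 0.26 for Mdh2 and -0.08 for Ldha.

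Most members were close to equal in the 2 libraries. The median ratio of the 32 members was 0.09, beside 0.02 for all 15521 genes with at least 10 reads and 0.04 for the 5055 genes with at least 1000. At 1.5-fold, 0 members were lower in SHs, where 6.2% of all genes were (2.1% of the 9608 genes with at least 200 reads), and 1 of 32, Pck2, was higher, where 3.5% were (1.86% with at least 200 reads). At a smaller fold, at least 25% higher in SHs (a ratio of 0.32), stood 7 of 32 members (Pklr, Pfkl, Fbp1, Pck1, Pck2, Got1 and Irs2), a share of 21.9% against 7.36% of all genes. Among the 28 members with at least 1000 reads, 6 were, a share of 21.4% against 5.54% of genes at that depth. At the same fold in the other direction, at least 20% lower, were 2 of 32 members, Pfkfb1 and Ppp1r3c, where 9.58% of all genes were, and 1 of 28 with at least 1000 reads, where 5.46% were. The interval lay above 0 for 16 of 32 members (16.8% of all genes) and under 0 for 8 (15.5%), and it held 0 for the other 8. With at least 1000 reads it lay above 0 for 15 of 28 (31.2%) and under 0 for 7 (21.1%). Together the members took 0.964% of all reads counted in MHs and 1.10% of those in SHs, and Pck1 alone made up 26.2% and 30.8% of these.

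**Figure D1:**
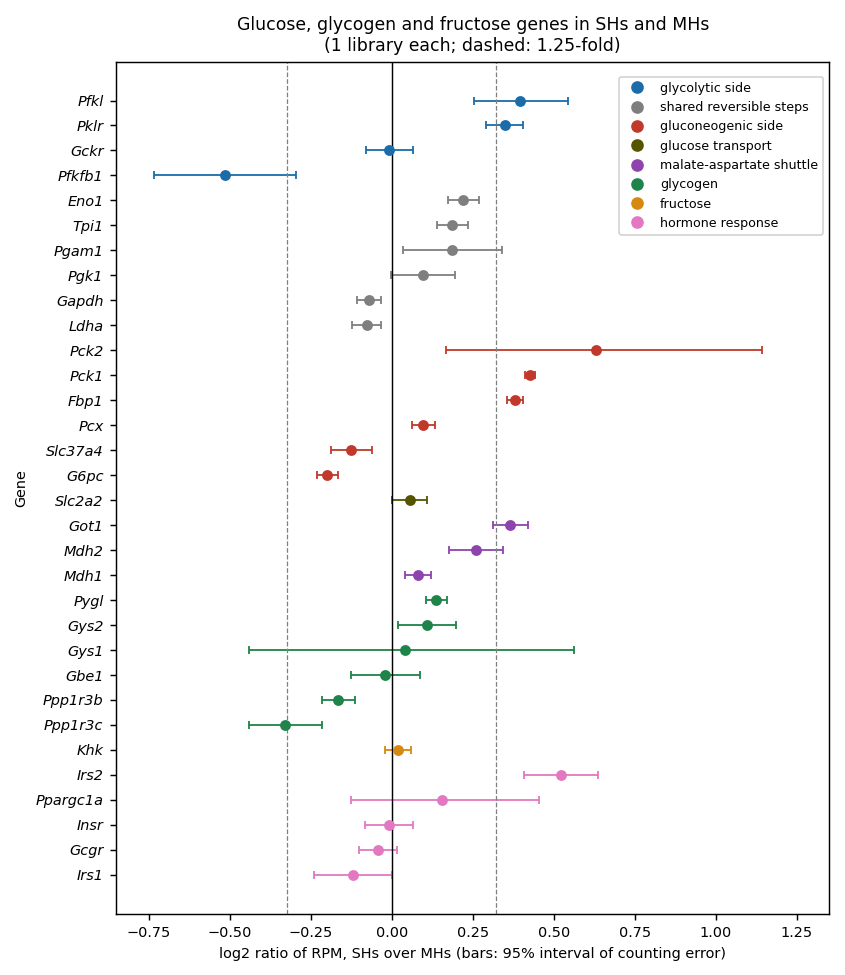
Log2 ratio of RPM, SHs over MHs, for each of the 32 members (points, x axis), grouped by role (colour), with 95% intervals of counting error from 1 library each and dashed lines at 25% higher and 20% lower. Pck1, Fbp1, Pklr, Pfkl, Got1 and Irs2 lie right of the upper line with Pck2, whose interval is wide, while Pfkfb1 (-0.52) and Ppp1r3c (-0.33) lie left of the lower one.

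On the gluconeogenic side, Pck1, Fbp1, Pck2 and Pcx were higher in SHs, and the pair that completes glucose release, G6pc and Slc37a4, was lower. Pck1 encodes the cytosolic phosphoenolpyruvate carboxykinase, which turns oxaloacetate into phosphoenolpyruvate, and lies at chr2:173153048-173159273 (mm10). It had the most reads of all members, 42898 in MHs (2527 RPM) and 143894 in SHs (3397 RPM). Its ratio was 0.43 (0.41 to 0.44), above that of 97.7% of the genes with at least 1000 reads.

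Fbp1 (chr13:62864753-62888282) encodes fructose-1,6-bisphosphatase, which undoes the committed step of glycolysis. It was counted at 1040.2 RPM in MHs and 1354 RPM in SHs, a ratio of 0.38 (0.36 to 0.40), or 1.30-fold, above that of 96.5% of genes at that depth. Pck2 (chr14:55540266-55551242), the mitochondrial carboxykinase, was sparsely read, with 46 reads in MHs and 179 in SHs. At 2.71 and 4.23 RPM its ratio of 0.63 was the highest of the members, and its interval of 0.17 to 1.14 the widest among those that excluded 0. The transcripts of Pck1, which is far more abundant, share no 50-base stretch with Pck2. Pcx, pyruvate carboxylase, which makes the oxaloacetate that the carboxykinases use, was near equal, at 519 RPM in MHs and 555 RPM in SHs (0.10, 0.06 to 0.13).

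G6pc (chr11:101367561-101377903) encodes the catalytic subunit of glucose-6-phosphatase, the last step before free glucose leaves the cell. It had 11839 reads in MHs (697 RPM) and 25739 in SHs (608 RPM), a ratio of -0.20 (-0.23 to -0.17). Slc37a4 (chr9:44396852-44402968), which carries glucose-6-phosphate into the endoplasmic reticulum for that enzyme, was counted at 166 RPM in MHs and 152 RPM in SHs (-0.13, -0.19 to -0.06). Among genes with at least 1000 reads, 12.1% had a ratio under that of G6pc and 19.9% one under that of Slc37a4. The 6 genes of the side thus ran from -0.20 to 0.63, with 4 intervals above 0, 2 under 0 and a median of 0.24. Summed, they were at 4951 RPM in MHs and 6070.2 RPM in SHs, of which Pck1 made up 51.0% and 56.0%.

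On the glycolytic side, Pklr and Pfkl were higher in SHs, Gckr did not differ beyond counting error and Pfkfb1 was lower. Pklr (chr3:89136142-89146784) encodes the liver pyruvate kinase, the last step of glycolysis. It had 3324 reads in MHs (196 RPM) and 10557 in SHs (249.2 RPM), a ratio of 0.35 (0.29 to 0.41). Pfkl (chr10:77986947-78010083), the liver phosphofructokinase that commits fructose-6-phosphate to glycolysis, was at 29.6 RPM in MHs and 39.0 RPM in SHs (0.40, 0.25 to 0.54).

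Gckr, a regulatory protein that acts on the entry of glucose into glycolysis, was at 128 RPM in both libraries, with a ratio of -0.01 (-0.08 to 0.06). Pfkfb1 (chrX:150588229-150643878) encodes the liver form of the bifunctional enzyme that makes and removes fructose-2,6-bisphosphate, the signal that activates phosphofructokinase and inhibits fructose-1,6-bisphosphatase. It had 272 reads in MHs (16.0 RPM) and 475 in SHs (11.2 RPM), the lowest ratio of all members at -0.52 (-0.73 to -0.29), or 1.43-fold lower. Its exons share 123 bases with Apex2 on the other strand, which had 100 and 253 reads, and the strand setting of the counting is not given in the sources used here. The median of the 4 genes was 0.17, and their sum was 369.9 RPM in MHs and 427 RPM in SHs.

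The balance between the summed reads of the 2 sides changed little. Within a library the ratio of reads on the gluconeogenic side to those on the glycolytic side does not depend on scaling. It stood at 13.4 for MHs and 14.2 for SHs, a log2 change of 0.09 (0.04 to 0.13). Without the regulators Gckr and Pfkfb1 and the transporter Slc37a4, which catalyse no step of either pathway, the change turned to -0.049, with an interval of -0.10 to 0.0051. Of the enzymes that work against each other, Fbp1 had 35.1 reads for each read of Pfkl in MHs and 34.7 in SHs (-0.02, -0.16 to 0.13). Pck1 had 12.9 and 13.6 reads for each read of Pklr (0.08, 0.02 to 0.14). For G6pc and Gckr, which also lie on opposite sides, the read ratio went the other way, with 5.43 in MHs and 4.76 in SHs (-0.19, -0.27 to -0.11).

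Larger shifts appeared within the gluconeogenic side, in 2 pairs chosen after the values were seen. For each read of G6pc there were 3.62 reads of Pck1 in MHs and 5.59 in SHs, a change of 0.63 (0.59 to 0.66). For Fbp1 the numbers were 1.49 and 2.23 reads, a change of 0.58 (0.54 to 0.62). The ZONE1 and ZONE3 markers given above differed between the same 2 libraries, and their part in any of these ratios was not tested.

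**Figure D2:**
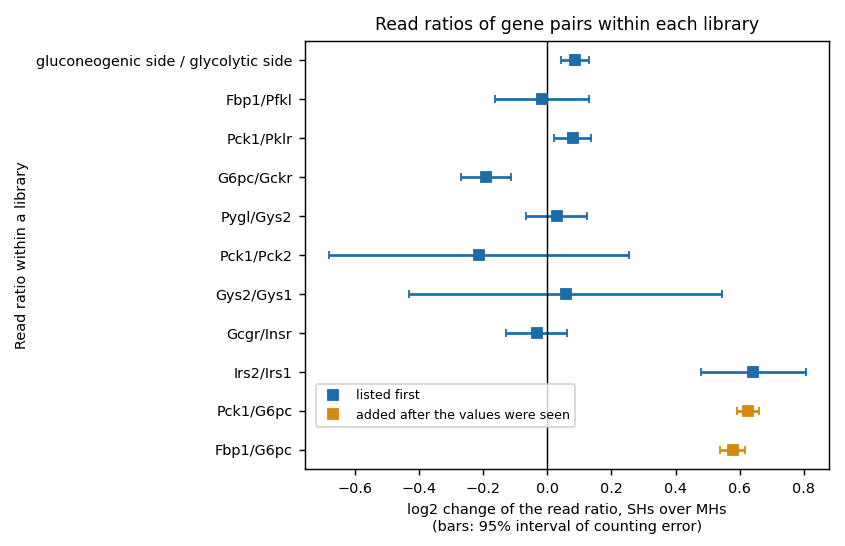
Log2 change of 11 read ratios within a library, SHs over MHs (x axis), with 95% intervals of counting error; blue squares are ratios listed first and orange squares those added after the values were seen. Irs2/Irs1, Pck1/G6pc and Fbp1/G6pc lie near 0.6, while Fbp1/Pfkl (-0.02), Pygl/Gys2 (0.03) and Gcgr/Insr (-0.03) lie at 0 within their intervals.

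The reversible steps that both directions share differed little. Eno1, enolase, was at 284 RPM in MHs and 331 RPM in SHs (0.22, 0.17 to 0.27). Tpi1, triosephosphate isomerase, was at 281 and 319 RPM (0.19, 0.14 to 0.23), and Pgam1, phosphoglycerate mutase, at 27.7 and 31.5 RPM (0.19, 0.03 to 0.34). The interval of Pgk1, phosphoglycerate kinase, still held 0 at 66.6 and 71.2 RPM (0.09, -0.0038 to 0.20), and lay above 0 under each of 4 other scalings.

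Gapdh and Ldha went slightly the other way. Gapdh, the glyceraldehyde-3-phosphate dehydrogenase that is often used as a reference gene, was at 461 RPM in MHs and 439 RPM in SHs (-0.07, -0.11 to -0.03). Ldha, the lactate dehydrogenase subunit that links pyruvate with lactate, was at 338 and 321 RPM (-0.08, -0.12 to -0.03). Some of these genes have near-identical copies, and reads could be split between them. Copies were looked for by symbol only, as a member's name followed by -ps or -rs, and Eno1b. Copies under other names, for Gapdh and Tpi1 as for the rest, were not covered. Of the 50-base windows of Pgk1, 53.8% also occurred in Pgk1-rs7, 36.2% of those of Pgam1 in Pgam1-ps2 and 25.3% of those of Eno1 in Eno1b. With the reads of their copies added, the ratios were 0.07 for Pgk1, 0.17 for Pgam1, 0.21 for Eno1 and -0.08 for Ldha.

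**Figure D3:**
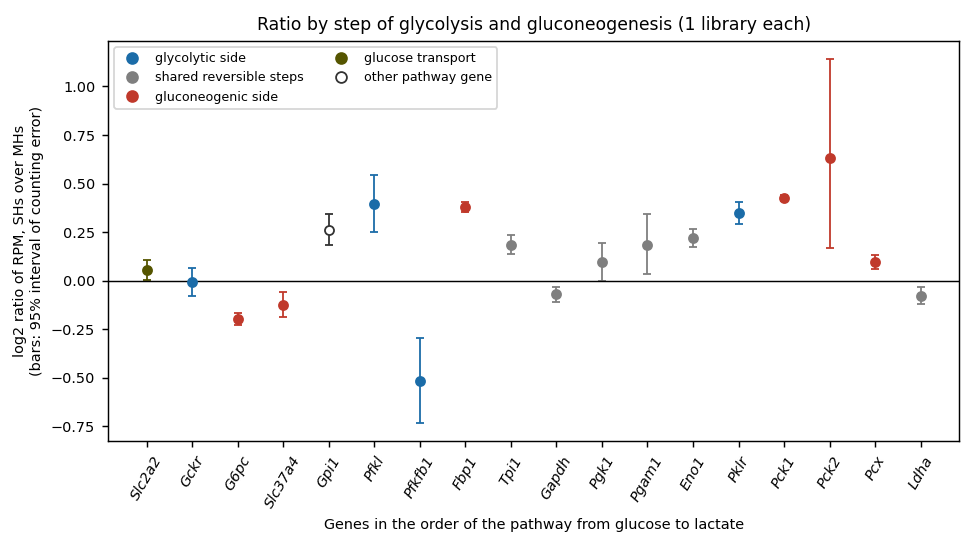
Log2 ratio of RPM, SHs over MHs (y axis), with 95% intervals of counting error, for the genes in pathway order from glucose to lactate; the open point is Gpi1, which is not among the 32. The values run from -0.52 for Pfkfb1 to 0.63 for Pck2, with the glucose end (Slc2a2, Gckr, G6pc, Slc37a4) between -0.20 and 0.05. At the phosphofructokinase step, Pfkl and Fbp1 lie at 0.40 and 0.38 and Pfkfb1 at -0.52.

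Slc2a2, which encodes GLUT2, the bidirectional glucose transporter of the hepatocyte surface, was at 231 RPM in MHs and 239.7 RPM in SHs. Its ratio of 0.05 had an interval of 0.0016 to 0.11 that only just excluded 0.

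The 3 genes of the malate-aspartate shuttle, which moves reducing equivalents and carbon across the mitochondrial membrane and feeds oxaloacetate to cytosolic Pck1, were all higher in SHs. Got1 (chr19:43499752-43524605), the cytosolic aspartate aminotransferase, was at 212 RPM in MHs and 273 RPM in SHs, a ratio of 0.37 (0.31 to 0.42), above that of 96.1% of the genes with at least 1000 reads. Mdh2, the mitochondrial malate dehydrogenase, was at 89.7 and 107 RPM (0.26, 0.18 to 0.34). Mdh1, its cytosolic counterpart, was at 424 and 449 RPM (0.08, 0.04 to 0.12). The median of the 3 was 0.26.

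Of the glycogen genes, Gys2 and Pygl were slightly higher in SHs, and Ppp1r3b and Ppp1r3c, which bring protein phosphatase to glycogen, were lower. Gys2, the liver glycogen synthase, was at 82.3 RPM in MHs and 88.7 RPM in SHs (0.11, 0.02 to 0.20). Pygl, the liver phosphorylase that releases glucose units, was at 613 and 674 RPM (0.14, 0.10 to 0.17). The ratio of Pygl to Gys2 reads was 7.45 in MHs and 7.60 in SHs, a change of 0.03 (-0.07 to 0.12).

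Ppp1r3c (chr19:36731731-36736653) and Ppp1r3b encode glycogen-targeting subunits of protein phosphatase 1, which dephosphorylates and so activates the synthase. Ppp1r3c had 979 reads in MHs (57.7 RPM) and 1946 in SHs (45.9 RPM), a ratio of -0.33 (-0.44 to -0.22), or 1.26-fold lower. Ppp1r3b, the main form in liver, was at 272 and 243 RPM (-0.16, -0.21 to -0.11). The other targeting subunits counted had few reads and intervals that held 0, with 47 and 145 reads for Ppp1r3g (0.30, -0.18 to 0.81), 15 and 42 for Ppp1r3e (0.14, -0.71 to 1.12) and 1 and 5 for Ppp1r3d. Gbe1, the branching enzyme, was at 58.8 and 58.0 RPM (-0.02, -0.13 to 0.09). Gys1, the synthase of muscle and other tissues, was near the bottom of the members at 2.83 RPM in MHs and 2.93 RPM in SHs (0.04, -0.44 to 0.56). Its exons share 310 bases with Ruvbl2 on the other strand, which had 189 and 632 reads against the 48 of Gys1 in MHs. Exons of Pklr, Gapdh, Tpi1, Pck2, Mdh1, Irs1 and Irs2 also overlap a gene on the other strand. The ratio of Gys2 to Gys1 reads was 29.1 and 30.3 (0.06, -0.43 to 0.55).

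Khk, ketohexokinase, which phosphorylates fructose and starts its breakdown, was at 407 RPM in MHs and 413 RPM in SHs, with a ratio of 0.02 (-0.02 to 0.06) that held 0 here but lay above it under 2 other scalings.

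Among the hormone response genes, Irs2 stood apart. Irs2 (chr8:10984681-11008458) encodes an insulin receptor substrate that is known to be repressed by insulin and induced in fasting. It had 801 reads in MHs (47.2 RPM) and 2870 in SHs (67.8 RPM), a ratio of 0.52 (0.41 to 0.64), or 1.44-fold, above that of 98.7% of the genes with at least 1000 reads. Irs1, the other main substrate of the insulin receptor in liver, was at 48.6 RPM in MHs and 44.8 RPM in SHs, with a ratio of -0.12. The upper end of the interval of Irs1 lay close to 0 (-0.24 to -0.00044), and it held 0 under each of 4 other scalings. There were 0.970 reads of Irs2 for each read of Irs1 in MHs and 1.51 in SHs, a change of 0.64 (0.48 to 0.81).

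The receptors did not differ beyond counting error. Gcgr, the glucagon receptor, was at 187 RPM in MHs and 182 RPM in SHs (-0.04, -0.10 to 0.02). Insr, the insulin receptor, was at 123.9 and 123.1 RPM (-0.01, -0.08 to 0.06), and the ratio of Gcgr to Insr reads was 1.51 in MHs and 1.48 in SHs. Ppargc1a, the coactivator PGC-1α that drives gluconeogenic genes in fasting, was at 8.01 and 8.95 RPM, and its 379 reads in SHs and 136 in MHs left an interval of -0.13 to 0.45 around a ratio of 0.16. The 12 immediate-early genes, which cell isolation is known to induce, summed to 1998 RPM in MHs and 2176 RPM in SHs. Of the 11 with at least 10 reads, 5 had intervals above 0 and 3 under 0, and their most abundant gene in both libraries was Jun. The median ratio of these 11 was 0.09. Fos, which had their highest ratio (0.61), was at 193 RPM in MHs and 295 RPM in SHs. The part of such a response in the values of Irs2, Pck1 and G6pc was not tested.

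Per kilobase of exon (RPKM, with all annotated exons of a gene merged), the order of the genes at the top was the same in both libraries. Pck1 led with 737 RPKM in MHs and 991 in SHs, followed by Fbp1 with 611 and 795, G6pc with 289 and 252, Khk with 227 and 229.8 and Mdh1 with 165 and 175. The lowest were Gys1, with 0.590 and 0.611 RPKM, and Pck2, with 0.347 and 0.541. In reads, Pck1 exceeded Pck2 933-fold in MHs and 804-fold in SHs, a change of -0.21 whose interval (-0.68 to 0.25) held 0. Glycolytic members lay far lower than Pck1 and Fbp1 per length, with Pklr at 60.5 RPKM in MHs and 77.0 in SHs and Pfkl at 4.44 and 5.85. Merged exons can exceed the main mRNA in length, as for Gapdh, so that RPKM understates such genes.

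**Figure D4:**
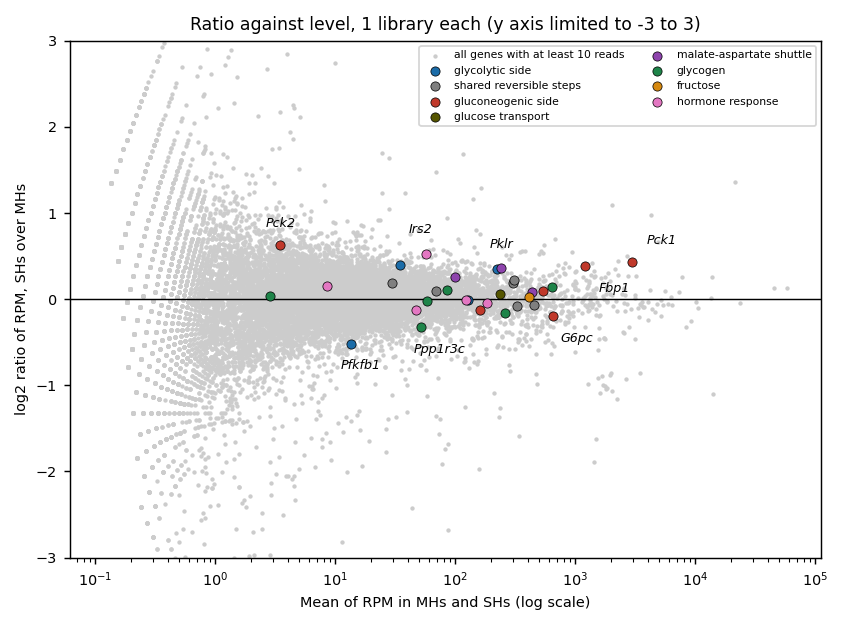
Log2 ratio of RPM, SHs over MHs (y axis, limited to -3 to 3, outside which 360 genes lie), against the mean RPM of the 2 libraries (log x axis), for all genes with at least 10 reads (grey) and the 32 members (coloured by role). The members run from Pck2 and Gys1 near 3 RPM to Pck1 at the far right, inside the grey cloud at low levels, with Pck1, Fbp1 and Irs2 at its upper edge.

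Another 126 genes of the same pathways were counted, and 116 of them had at least 10 reads. Their median ratio was 0.06, with 39 intervals above 0, 22 under 0 and 55 that held 0. Of the other 10 glycolysis genes, 2 lay above 0 and 4 under 0, with a median of -0.17. Among them Pfkfb3, another bifunctional fructose-2,6-bisphosphate enzyme, had 247 reads in MHs and 438 in SHs (-0.49, -0.72 to -0.26). Picked after the values were seen, Pfkfb2, a related enzyme, had 166 and 338 reads (-0.30, -0.57 to -0.02).

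Of 12 isoforms typical of other tissues with at least 10 reads, 4 were above 0 and 1 under 0 (median 0.22). Aldoa, the most abundant, was at 49.4 RPM in MHs and 62.3 RPM in SHs (0.33, 0.22 to 0.45), and Aldoc had 64 and 280 reads (0.80, 0.41 to 1.23). The gene under 0 was Pkm, the pyruvate kinase of muscle and non-hepatocyte cells, with 21 reads in MHs and 15 in SHs. It was 1.24 RPM in MHs and 0.354 RPM in SHs, in the same direction as the endothelial and macrophage markers above, and the part of such cells in it was not tested.

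Pyruvate entry to mitochondria had 2 genes above and 4 under 0 of 11 (median -0.03). Its most abundant gene was Mpc2, a mitochondrial pyruvate carrier subunit (0.06, -0.02 to 0.15). Pdk4, the fasting-induced kinase that switches off pyruvate dehydrogenase, had 114 reads in MHs and 148 in SHs, the lowest of those with at least 200 reads and an interval excluding 0, at -0.94 (-1.30 to -0.58). Shuttle partners and related carriers had 5 above and 2 under 0 of 9 (median 0.08). Among these were Slc25a12, a mitochondrial aspartate-glutamate carrier (0.37, 0.18 to 0.57), Gpd2, the mitochondrial glycerol-3-phosphate dehydrogenase (-0.37, -0.53 to -0.21), and Gpt2, a mitochondrial alanine aminotransferase that had the most reads (0.15, 0.11 to 0.19).

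Other glycogen genes had 4 above and 3 under 0 of 17 (median 0.08), led by Ugp2, which makes UDP-glucose (0.15, 0.10 to 0.21). Fructose, polyol and galactose genes had 6 above and 1 under 0 of 11 (median 0.09). The fructose transporter Slc2a5 had 71 reads in MHs and 308 in SHs (0.79, 0.42 to 1.19), and Sord, sorbitol dehydrogenase, had the most reads and was slightly lower in SHs (-0.10, -0.14 to -0.07). The pentose phosphate pathway had 1 above and 1 under 0 of 8 (median 0.02). Its gene under 0 was H6pd, the endoplasmic reticulum glucose-6-phosphate dehydrogenase, which uses the glucose-6-phosphate that Slc37a4 imports (-0.15, -0.19 to -0.11).

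Of 39 other signalling and regulatory genes, 15 lay above 0 and 7 under 0 (median 0.05). Those with the highest ratios were Trib3, an inhibitor of AKT (0.49, 0.13 to 0.89), and Ppargc1b, a relative of Ppargc1a (0.44, 0.16 to 0.74). Those with the lowest were Creb1, a transcription factor that binds the CRE (-0.40, -0.60 to -0.19), and Grb10, an adaptor that damps the insulin receptor (-0.39, -0.73 to -0.03). The most abundant were Adipor2 in MHs, an adiponectin receptor (-0.15, -0.18 to -0.11), and Hnf4a in SHs, a hepatocyte transcription factor (0.04, 0.0030 to 0.07). Pdk1, a pyruvate dehydrogenase kinase (-0.26, -0.38 to -0.13), was counted both among these 39 genes and under pyruvate entry to mitochondria. The total over all lists counts Pdk1 once.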

How the data were processed

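For each library the authors deposited whole read counts per gene symbol, without normalization. Per the methods, reads were trimmed, aligned to mm10 in CLC Genomics Workbench with at most 10 hits per read, and expressed as RPKM. The program, annotation and strand setting behind the counts are not given in the sources used here.

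Ratios and intervals were computed in Python 3.11.15 with scipy 1.17.1 and run on simulated counts with Poisson error only. That run checked the code under counting error, and it held no spread between animals and no duplicate reads. A gene was called past a fold when its interval also excluded 0. Exon lengths and positions came from GENCODE M21, which held 39469 of 43280 symbols and all 32 members.

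All members are named. Other pathway genes are named for the 5 lowest or 5 highest ratios with at least 200 reads and an interval excluding 0, or the most reads of their list, as are marker genes for the most reads. Gpi1, Pdk1, Pfkfb2, Pkm, Ppp1r3d, Ppp1r3e, Ppp1r3g, Fos and markers with 0 or 1 read were named after their values were seen. Some genes that the rule names are not reported here. Members and lists were chosen with earlier results of these data known. Alternatives were edgeR 4.0.16 TMM, DESeq2 1.42.0 size factors, totals without the 10 top genes or of protein-coding genes (added after seeing the data), 2 added reads, and other read minimums, folds and sides.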

Additional observations from a re-analysis of the deposited data

How the results depend on the processing

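No paired analysis was possible because each condition had 1 library. Of the 32 members, 32 kept their ratio within its interval with 2 added reads, edgeR's TMM and DESeq2's size factors, and other scalings raised all ratios by 0.01 to 0.03. Without the 10 genes with the most reads in the total, Pck1 was 0.46 and Fbp1 0.41, and with the total of protein-coding genes, added after the data were seen, Pck1 was 0.45. The interval of Pgk1 lay above 0 under all 4 scalings and that of Khk under the last 2 of these, while that of Irs1 held 0 under all 4. The median of the gluconeogenic side was 0.27 without the 10 top genes and 0.18 with Slc2a2, Got1, Mdh1 and Mdh2 added to it. The ratio of gluconeogenic to glycolytic reads changed by -0.049 in place of 0.09 without Gckr, Pfkfb1 and Slc37a4 together, and the cause was not tested. Members called lower numbered 2 at the lower threshold (25% higher or 20% lower) in place of 0 at 1.5-fold, and members called higher numbered 7 at that threshold, 0 at 2-fold and 0 with at least 1000 reads, in place of 1. Precision was limited by reads for Pck2, Gys1, Pfkfb1 and Ppargc1a, and with 1 library of each kind the spread between animals is unknown.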
